A study of Mus musculus with 6 samples.

Results

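The 8 genes described here encode proteins of connective tissue matrix and stromal cells: the type I collagen chains Col1a1 and Col1a2, the type III collagen chain Col3a1, the proteoglycan Dcn (decorin), the matricellular protein Sparc, the growth factor receptor Pdgfra, fibronectin (Fn1) and the matricellular protein Ctgf. They were chosen by gene symbol from a table of 23282 symbols, with the transcript of the highest mean signal standing for each symbol, and all 8 were found and passed the minimum of a mean of 10 reads over the libraries. The libraries hold poly(A) RNA of macrophages that thioglycollate, an irritant, had drawn into the peritoneal cavity of female C57BL/6 mice. The cells were given siRNA against Phf2 (siPhf2), siRNA against Smyd5 (siSmyd5) or control siRNA (siCtl) for 48 hours, and then KLA (Kdo2-lipid A, the part of bacterial lipopolysaccharide that acts on the receptor TLR4) at 100 ng per ml or vehicle for 4 hours. Each combination of siRNA and agent has 1 library, 6 in all, and no group has replicates. Separate animals or cultures are not named in the labels, and the p-values below therefore cover the spread among these 6 libraries, which may be technical.

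Fibrillar collagens are secreted as triple helices by fibroblasts and related stromal cells and assemble outside the cell into the fibres that give tissue its strength. Decorin and Sparc bind these fibres, fibronectin is laid down with them and is held by integrins, Pdgfra marks many fibroblasts, and Ctgf is a well known target of TGF-beta signalling and of the coactivators YAP and TAZ. Macrophages are not a main source of fibrillar collagen but make fibronectin in quantity.

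The siPhf2-labelled libraries were the shallowest and stand apart. They held 119144 (KLA) and 192420 (vehicle) reads outside the ribosomal RNA precursor Rn45s, which took 71.6% and 66.7% of their reads, against 910906 to 1419165 reads outside Rn45s, and at most 1.20% in Rn45s, in the other libraries. The tag totals printed in the column headers for siPhf2 and siCtl fit each other's values, so that either names or totals were exchanged when the table was written. Phf2 itself was not lower under the siPhf2 label: its TMM-scaled level (a scaling that balances most genes between libraries) stood at 1.08 of siCtl under KLA (95% interval 0.457 to 2.20) and 2.54 of siCtl under vehicle (1.63 to 3.85). Smyd5 stood at 1.10 of siCtl in the siSmyd5-labelled KLA library (0.592 to 2.02) and 0.330 in the siSmyd5-labelled vehicle library (0.141 to 0.684). Arms are therefore called by their labels. Every interval on reads or ratios is an exact Poisson or binomial 95% interval and covers counting error only, since reads without molecular identifiers are not independent molecules.

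Markers of the labelled cell type were abundant, with the 10 macrophage markers summing to TMM-scaled levels of 3928 to 5617 RPM (reads per 1000000 scaled reads) in the 6 libraries. Markers of other stromal cells were uneven. In the fibroblast list Lum had at most 9 reads in a library, Mmp2 at most 8, Thy1 at most 5 and Pi16 had 0 reads in all 6 libraries, whereas Col6a3 had 117 (KLA) and 123 (vehicle) reads in siCtl, Fbn1 105 and 86, Col5a1 101 and 102 and Loxl1 33 and 32. Smooth muscle Acta2 had 98 and 124 reads in siCtl, whereas Myh11 had at most 3 reads in a library. The endothelial genes Vwf and Kdr had 124 and 103 and 58 and 110 reads in siCtl. Of the other endothelial genes, Cdh5 had at most 8 reads in a library, Pecam1 at most 4, Tek at most 2 and Emcn 0. In bulk RNA, fewer cells of a type and less RNA per cell cannot be told apart.

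**Figure D1:**
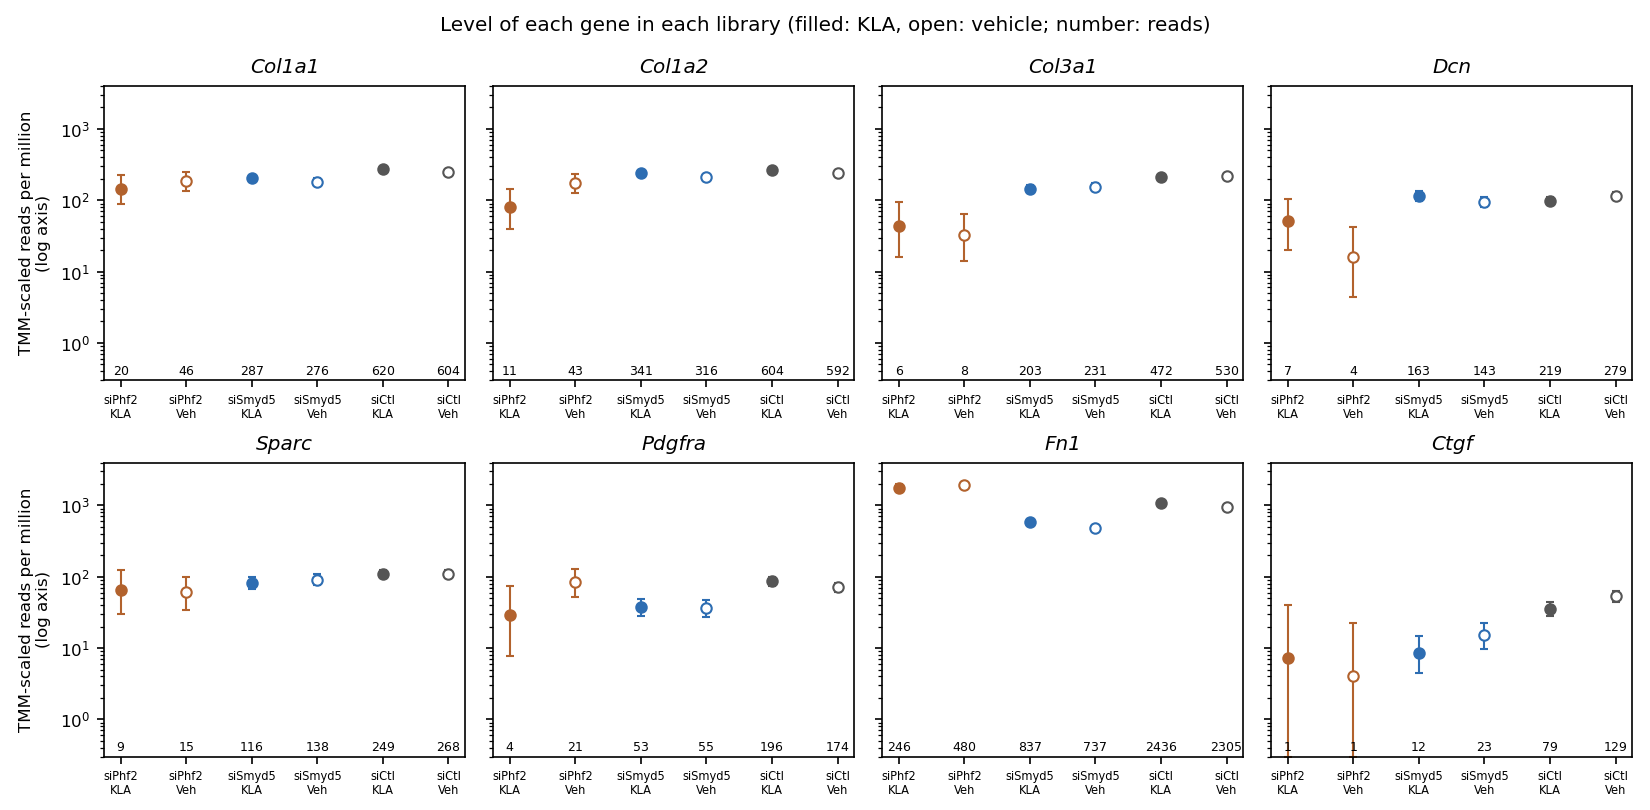
Level of each of the 8 genes in each library, in TMM-scaled RPM on a log axis, with exact Poisson 95% intervals and the read count printed at the foot (filled points KLA, open points vehicle); the lower ends of the Ctgf intervals under siPhf2 run off the axis. Fn1 is the highest gene in every library. By point value, Col1a2, Col3a1, Dcn, Sparc and Ctgf each have their lowest levels in the siPhf2-labelled libraries, and the intervals of Sparc overlap across all 6 libraries.

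The type I collagen chains were clearly present and close to each other. Col1a1 (NM_007742, chr11:94797584-94813170 on mm9) had 20 (KLA) and 46 (vehicle) reads under the siPhf2 label, 287 and 276 under the siSmyd5 label, and 620 and 604 in the siCtl libraries. Its TMM-scaled level was 144 and 187 RPM under siPhf2, 204 and 182 under siSmyd5, and 275 and 248 under siCtl. The siSmyd5 and siPhf2 values of Col1a1 thus all lay below both siCtl values. The counting intervals of siPhf2 vehicle (137 to 249 RPM) and siSmyd5 KLA (181 to 229) nevertheless reached that of siCtl vehicle (228 to 268). Col1a2 (NM_007743, chr6:4455697-4491543 on mm9), whose chain winds with that of Col1a1 in the type I helix, had 11 and 43 reads under siPhf2, 341 and 316 under siSmyd5, and 604 and 592 under siCtl. These were TMM-scaled levels of 79.3 and 175 RPM under siPhf2, 242 and 209 under siSmyd5, and 268 and 243 under siCtl. The siSmyd5 and siCtl values of Col1a2 nearly met, and the siPhf2 KLA library was the lowest.

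Col3a1 (NM_009930, chr1:45368383-45406551 on mm9), whose type III fibres run beside type I fibres in soft tissue, was more sharply divided by arm. It had 6 (KLA) and 8 (vehicle) reads under siPhf2, 203 and 231 under siSmyd5, and 472 and 530 under siCtl. The TMM-scaled levels were 43.3 and 32.5 RPM under siPhf2, 144 and 153 under siSmyd5, and 209 and 217 under siCtl. The arms did not overlap, with siCtl highest and siPhf2 lowest.

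The promoters of Col1a2 and Col3a1 are shown as those of the collagen chains for which a RefSeq window was matched. Promoter sequence from RefSeq (GRCm38.p6, a later build than the mm9 of the read table) was matched for 4 of the 8 genes: Col1a2, Col3a1, Pdgfra and Sparc. The 250 bases before the start were searched on both strands for 5 motifs: the TATA box with letters TATAAA, the CCAAT box as named, the GC box with letters GGGCGG, the TEAD factor motif with letters GGAATG and the AP-1 motif with letters TGANTCA. Matches are in capitals. The first window is at chr6:4505368-4505617 and the second at chr1:45311288-45311537, both on the plus strand and written 5′ to 3′.
Col1a2: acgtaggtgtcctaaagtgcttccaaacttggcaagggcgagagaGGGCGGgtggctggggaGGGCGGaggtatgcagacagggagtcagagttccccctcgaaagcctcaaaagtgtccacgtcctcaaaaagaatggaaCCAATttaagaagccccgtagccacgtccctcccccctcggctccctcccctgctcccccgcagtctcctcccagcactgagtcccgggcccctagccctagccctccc
Col3a1: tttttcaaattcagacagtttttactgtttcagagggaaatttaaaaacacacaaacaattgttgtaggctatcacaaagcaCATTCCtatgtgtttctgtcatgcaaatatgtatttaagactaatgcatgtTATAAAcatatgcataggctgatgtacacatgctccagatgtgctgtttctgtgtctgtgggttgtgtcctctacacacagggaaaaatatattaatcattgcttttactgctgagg
The Col1a2 window holds a CCAAT box that starts 109 bases before the start and GC boxes at 205 and 188 bases. The Col3a1 window holds a TATAAA at 117 bases and a GGAATG on the minus strand at 168 bases, and no match overlapped another. The Pdgfra and Sparc windows held none of the 5 motifs. Among all 32851 RefSeq promoter windows of this length, 33.85% hold CCAAT, 32.74% GGGCGG, 12.37% TATAAA, 12.64% GGAATG and 6.75% TGANTCA, so such matches are common.

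Of the fibre-binding proteins, Dcn (NM_001190451, chr10:96942134-96980796 on mm9), which coats collagen fibrils and binds TGF-beta, had 7 (KLA) and 4 (vehicle) reads under siPhf2, 163 and 143 under siSmyd5, and 219 and 279 under siCtl. Its TMM-scaled levels were 50.5 and 16.3 RPM under siPhf2, 116 and 94.5 under siSmyd5, and 97.2 and 114 under siCtl. The siSmyd5 and siCtl values of Dcn overlapped, while both siPhf2 values were lower. The counting interval of siPhf2 KLA (20.3 to 104 RPM) reached those of the siSmyd5 and siCtl libraries. Sparc (NM_009242, chr11:55208003-55233582 on mm9), a secreted collagen-binding glycoprotein, had 9 and 15 reads under siPhf2, 116 and 138 under siSmyd5, and 249 and 268 under siCtl. The scaled levels of Sparc were 64.9 and 61.0 RPM under siPhf2, 82.4 and 91.2 under siSmyd5, and 110 and 110 under siCtl. The point values of the arms did not overlap, but the counting intervals of the 6 libraries all overlapped. Those of siPhf2 were 29.7 to 123 RPM (KLA) and 34.1 to 101 (vehicle).

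Pdgfra (NM_011058, chr5:75548316-75594229 on mm9), the receptor through which platelet-derived growth factors drive mesenchymal cells, had 4 (KLA) and 21 (vehicle) reads under siPhf2, 53 and 55 under siSmyd5, and 196 and 174 under siCtl. Its TMM-scaled levels were 28.8 and 85.3 RPM under siPhf2, 37.7 and 36.3 under siSmyd5, and 87.0 and 71.4 under siCtl. The siSmyd5 values were below both siCtl values, and the siPhf2 values lay far apart, KLA below both siSmyd5 values and vehicle within the siCtl range. The counting intervals of the siPhf2 KLA (7.86 to 73.9 RPM) and vehicle (52.8 to 130) libraries overlapped. Ctgf (NM_010217, chr10:24315248-24318488 on mm9), a secreted modulator of matrix and growth factor signals, had 1 and 1 read under siPhf2, 12 and 23 under siSmyd5, and 79 and 129 under siCtl. That corresponds to scaled levels of 7.21 and 4.06 RPM under siPhf2, 8.52 and 15.2 under siSmyd5, and 35.1 and 52.9 under siCtl. Ctgf was lower in each siSmyd5 and siPhf2 library than in both siCtl libraries, and 1 read gives almost no precision, with an upper limit of 40.2 RPM for siPhf2 KLA.

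Fn1 (NM_010233, chr1:71632097-71699745 on mm9), which links integrins to the matrix, was ordered differently from every other member. It had 246 (KLA) and 480 (vehicle) reads under siPhf2, 837 and 737 under siSmyd5, and 2436 and 2305 under siCtl. Its TMM-scaled levels were 1774 and 1951 RPM under siPhf2, 595 and 487 under siSmyd5, and 1081 and 946 under siCtl. The siPhf2 values were the highest and the siSmyd5 values the lowest, with no overlap between arms.

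Compared per kilobase of transcript, Fn1 had the highest level of the 8 genes in every library, at 215 and 236 TMM-scaled RPM per kilobase in the siPhf2 KLA and vehicle libraries, 71.9 and 58.9 in the siSmyd5 libraries and 131 and 114 in the siCtl libraries. In the siCtl vehicle library the levels per kilobase then ran Dcn (60.9), Col1a1 (53.3), Sparc (48.0), Col1a2 (47.7), Col3a1 (39.4), Ctgf (22.1) and Pdgfra (10.9). Counting intervals of Dcn and Col1a1 overlapped there, as did those of Col1a1, Sparc and Col1a2, whereas the intervals of Col1a2 and Col3a1, of Col3a1 and Ctgf, and of Ctgf and Pdgfra did not overlap. In the siPhf2 vehicle library Dcn (8.66) and Col3a1 (5.90) stood below Pdgfra (13.1), in an order the siCtl and siSmyd5 libraries did not show, although the intervals of Dcn (2.36 to 22.2) and Col3a1 (2.55 to 11.6) both overlapped that of Pdgfra (8.09 to 20.0).

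What KLA did to these genes was asked with an additive fit of siRNA and agent over the 6 libraries (edgeR quasi-likelihood with Benjamini-Hochberg adjustment over 7995 genes). None of the 8 passed, against 15.8% of all genes tested that changed in either direction, and the median log2 fold change of the 8 was 0.02, against −0.03 for all genes. DESeq2, limma-voom and limma on log2 values also called 0 of the 8, and 1, Ctgf, had an unadjusted p under 0.05 in edgeR. The collagens stood at log2 fold changes of 0.06 (Col1a1, standard error 0.20), −0.02 (Col1a2, 0.22) and −0.04 (Col3a1, 0.20). Dcn (0.08), Pdgfra (0.06), Sparc (−0.05) and Fn1 (0.12) were as close to 0, with standard errors of 0.18 to 0.22. Col1a1, Dcn, Pdgfra and Fn1 stood below 0 when scaled to the library total, where the median of all genes was −0.19. Ctgf had the largest value, −0.62 (standard error 0.27, edgeR adjusted p 0.133), and passed without the siPhf2-labelled libraries, at −0.67 (edgeR adjusted p 0.0271).

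**Figure D2:**
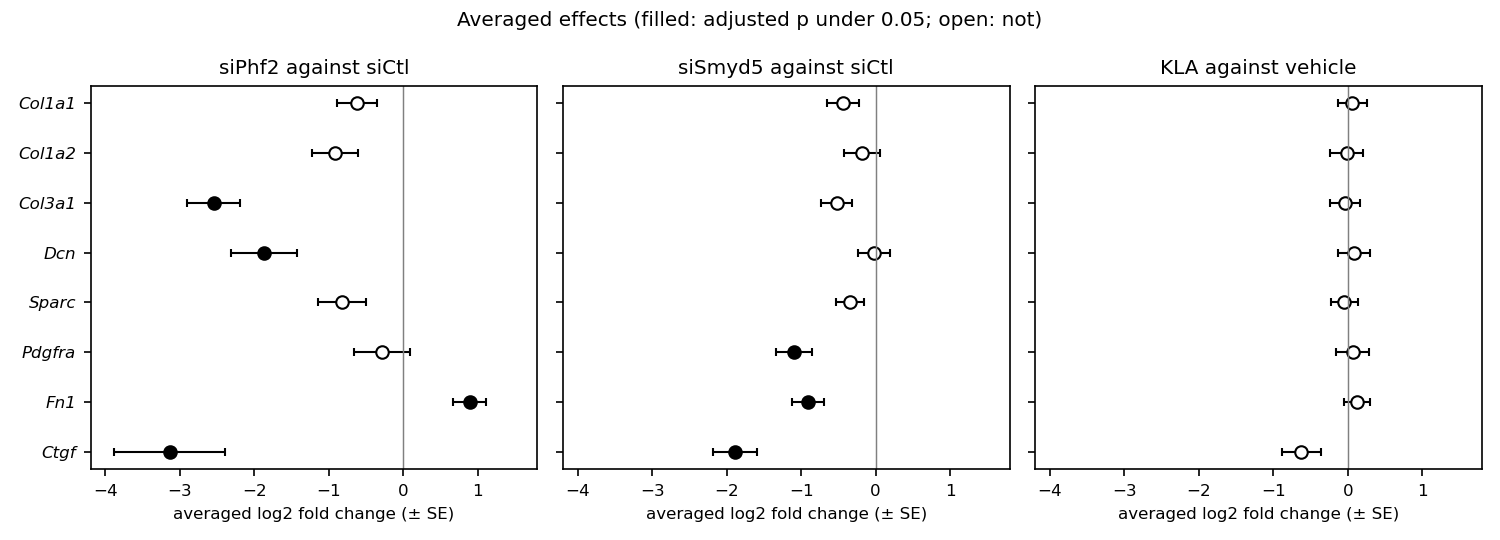
Averaged log2 fold changes of the 8 genes with their standard errors for siPhf2 against siCtl, siSmyd5 against siCtl and KLA against vehicle, from the additive edgeR fit (filled points adjusted p under 0.05). Ctgf lies left of 0 in all 3 panels, and Fn1 changes side between the siPhf2 and siSmyd5 panels.

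Fn1 stood at 1.14 times its vehicle level after KLA in the siCtl arm (1.08 to 1.21) and 1.22 times in the siSmyd5 arm (1.10 to 1.35), and at 0.909 in the siPhf2 arm (0.777 to 1.06). Ctgf stood at 0.662 of vehicle in the siCtl arm (0.494 to 0.883) and 0.561 in the siSmyd5 arm (0.254 to 1.17). Genes past a size bound, a log2 ratio of at least 1 in either direction with an interval that excludes equality, were then counted in each single-library contrast. After KLA 0 of the 8 were past it in the siSmyd5 arm, where 12.2% of all genes were, and 0 in the siCtl arm, where 9.33% were. Of the 8 genes 1, Col1a2, was past it in the siPhf2 arm, on the lower side, at 0.454 of vehicle (0.211 to 0.895). In that contrast 6.88% of all genes were past the bound on the lower side. The difference between arms was not tested.

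Counts of related matrix genes after KLA are read beside the 11.2% of all genes tested that rose and the all-gene median of −0.03, in lists chosen with earlier results of these data known. Of 9 measured fibronectin and collagen receptors 4 rose, among them the heparan sulfate proteoglycan Sdc4 (log2 fold change 2.71), the integrin chain Itgav (1.58), which pairs into fibronectin receptors, Itga4 (1.56) and Itga5 (0.59), and the list's median was 0.44. Of 18 collagen-processing genes 2 rose, the crosslinking enzyme Lox (1.51) and the prolyl hydroxylase subunit P4ha1 (0.71), a share close to that of all genes. Of 9 proteoglycan and matricellular genes the large proteoglycan Vcan (1.59) and thrombospondin 1, Thbs1 (1.0), rose. Among genes of the TGF-beta pathway Skil (1.70), a repressor of SMAD signalling, rose. In the PDGF system the ligand gene Pdgfb rose (2.12) and Pdgfa fell (−0.80). Of 7 other fibrillar and fibril-associated collagens 1 rose, Col27a1 (3.19). DESeq2, limma-voom and limma on log2 values called 3, 4 and 2 of the receptors, 1, 1 and 0 of the collagen-processing genes, 1, 2 and 0 of the proteoglycan and matricellular genes, and 1 of the other collagens each. In the PDGF system none of these 3 called a fall, limma-voom called 1 rise and the other two called none. Of 10 basement membrane genes 0 passed in edgeR, DESeq2, limma-voom or limma, with 0 at an unadjusted p under 0.05 in edgeR.

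The siSmyd5 libraries were set against the siCtl libraries in the same fit. Of the 8 genes 3 fell, Ctgf, Pdgfra and Fn1, against 3.65% of all genes tested that fell. The log2 fold change was −1.88 for Ctgf (standard error 0.29, edgeR adjusted p 0.00256), −1.09 for Pdgfra (0.24, edgeR adjusted p 0.0144) and −0.91 for Fn1 (0.22, edgeR adjusted p 0.0209). Values that did not pass were −0.52 for Col3a1, −0.44 for Col1a1, −0.34 for Sparc, −0.18 for Col1a2 and −0.02 for Dcn, and the median of the 8 was −0.48, against 0.00 for all genes. Without both siPhf2-labelled libraries, a setting chosen after seeing the data, 6 of the 8 fell, Col1a1, Col3a1 and Sparc in addition. Those 3 stood at log2 fold changes of −0.46, −0.55 and −0.37. In that setting 1071 genes fell, against 292 of 7995 with all 6 libraries. The minimum mean of 10 reads was taken there over the libraries kept. The number of genes tested therefore need not be 7995, and no share is given.

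Ctgf in the siSmyd5 libraries stood at 0.243 of siCtl under KLA (0.121 to 0.449) and 0.287 under vehicle (0.176 to 0.450). Pdgfra stood at 0.433 of siCtl under KLA (0.313 to 0.589) and 0.509 under vehicle (0.369 to 0.693), and Fn1 at 0.550 (0.508 to 0.595) and 0.515 (0.473 to 0.560). Past the size bound on the lower side were Ctgf and Pdgfra under KLA, where 3.6% of all genes were, and Ctgf under vehicle, where 4.99% were. Dcn stood at 1.19 of siCtl under KLA (0.967 to 1.47) and 0.826 under vehicle (0.670 to 1.01).

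After correction of the log2 ratios for transcript length, Fn1 (8266 bases) stood at −0.39 under KLA and −0.47 under vehicle, against −0.86 and −0.95 uncorrected. Pdgfra (6530 bases) stood at −0.82 and −0.57 with the correction, against −1.18 and −0.95 without it, whereas Ctgf (2397 bases) kept −1.93 and −1.77, against −1.87 and −1.70. Col3a1 stood at −0.27 and −0.21 with the correction, and Col1a2 crossed 0 to 0.08 and 0.03. The 3 calls were absent with DESeq2 and limma on log2 values, and limma-voom called Fn1 alone. They were also absent without any single siCtl or siSmyd5 library and with reads summed over transcripts, 0 of the 8 passing in each. With the siCtl and siPhf2 names exchanged, Fn1 fell (−1.80), Ctgf stood at 1.26 without passing, and Col3a1 (2.02) and Dcn (1.85) rose. Over all 7995 genes tested that exchange called 943 rises and 1087 falls, against 219 and 292 with the names as printed.

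Lists of related matrix genes under the siSmyd5 label are read beside the 3.65% of all genes tested that fell. Of 7 other fibrillar and fibril-associated collagens 4 fell. They were the fibril-associated Col12a1 (log2 fold change −1.65), the type VI microfibril chains Col6a3 (−1.27) and Col6a1 (−0.75), and Col5a1 (−1.20), which helps start type I fibrils. Of 10 basement membrane genes 6 fell, among them the heparan sulfate proteoglycan Hspg2 (−1.83), the linker nidogen Nid1 (−1.60) and the type IV collagen chains Col4a2 (−1.36) and Col4a1 (−1.23). Of 18 collagen-processing genes Lox (−1.44) and the collagen chaperone Serpinh1 (−0.83) fell. Of 9 proteoglycan and matricellular genes 3 fell, Tnc (−1.59), the microfibril protein Fbn1 (−1.53) and Fbln2 (−1.04). In the TGF-beta pathway 2 of 14 fell, the latent TGF-beta binding protein Ltbp2 (−1.26) and the repressor Ski (−0.86). Of 9 fibronectin and collagen receptors, 3 YAP and TEAD genes and 2 PDGF genes 0 passed in edgeR, DESeq2, limma-voom or limma, with 6, 3 and 0 at an unadjusted p under 0.05 in edgeR. List medians were −0.75 for the other collagens, −1.20 for basement membrane, −0.38 for collagen processing and −0.82 for proteoglycan and matricellular genes. These falls rest on edgeR: DESeq2 and limma-voom each called 1 of the 10 basement membrane genes and limma on log2 values 0, and all 3 called 0 in the other lists named here. The correction for transcript length was not applied to these averaged fold changes. Over all genes, it took the number past the size bound on the lower side from 288 to 157 under KLA. Under vehicle that number went from 399 to 256. With the siCtl and siPhf2 names exchanged 1 of the other collagens rose and 1 fell (median 0.06), 2 collagen-processing genes rose and 0 fell (median 0.57), and 4 basement membrane genes fell (median −1.32). These counts are read beside that setting's own background, in which 943 of the 7995 genes tested rose and 1087 fell.

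Marker lists of some other cell types moved with this difference, and their part in it was not tested. The 12 other fibroblast markers summed to 94.5 and 56.8 TMM-scaled RPM in the siSmyd5 KLA and vehicle libraries, against 177 and 162 in the siCtl libraries. Of 4 measured members 3 fell (Fbn1, Col5a1 and Col6a3), and the same 3 are already counted in the matrix lists above. Thy1, Pdgfrb and Mmp2 of this list averaged under 10 reads and were not tested. Mesothelial markers summed to 15 and 17 reads under siSmyd5 and 44 and 90 under siCtl, or 10.7 and 11.2 RPM against 19.5 and 36.9. Wt1 had 4 and 7 reads under siSmyd5 and 16 and 27 under siCtl, and none of the 9 reached a mean of 10 reads. Smooth muscle and pericyte markers summed to 18.5 and 34.4 RPM under siSmyd5, against 66.1 and 67.7 under siCtl, and the contractile actin Acta2 fell (−1.39), while the defining gene Myh11 had at most 3 reads in a library. These falls too were called by edgeR and not by DESeq2, limma-voom or limma on log2 values. The summed endothelial markers were level, at 85.2 and 87.2 RPM under siSmyd5 and 86.1 and 89.4 under siCtl, with Kdr at −0.04 and Vwf at 0.02. That sum describes little beyond these 2 genes. Vwf and Kdr gave 76 and 54 of 132 reads in siSmyd5 vehicle and 103 and 110 of 218 in siCtl vehicle. Of 9 measured macrophage markers 0 passed in edgeR, DESeq2, limma-voom or limma, with 2 at an unadjusted p under 0.05 in edgeR, and the list's median was 0.11. As a share of the summed macrophage markers of the same library, which needs no scaling, the 7 members other than Fn1 held 16.6% and 16.0% in the siSmyd5 KLA and vehicle libraries and 24.2% and 26.9% in the siCtl libraries.

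**Figure D3:**
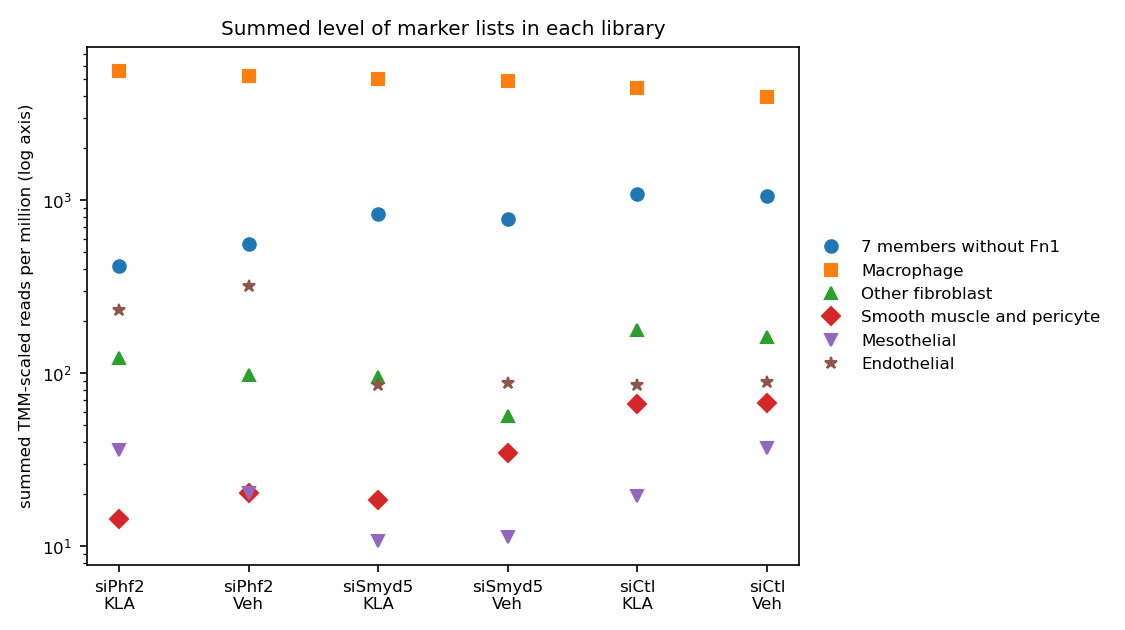
Summed TMM-scaled RPM, on a log axis, of the 7 members without Fn1 and of 5 marker lists in each library. The 7 members sum to 418 and 561 under siPhf2, 835 and 781 under siSmyd5 and 1082 and 1057 under siCtl (KLA and vehicle), while macrophage markers vary less, between 3928 and 5617.

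The siPhf2 libraries were set against siCtl in the same way, and both siRNA comparisons use the same siCtl libraries. Of the 8 genes 3 fell, Ctgf, Col3a1 and Dcn, against 4.52% of all genes tested that fell, and 1, Fn1, rose, against 8.12% that rose. The log2 fold change was −3.14 for Ctgf (standard error 0.75, edgeR adjusted p 0.00848), −2.55 for Col3a1 (0.36, edgeR adjusted p 7.96e-05) and −1.86 for Dcn (0.44, edgeR adjusted p 0.00844). Fn1 rose with TMM scaling, at 0.89 (standard error 0.22, edgeR adjusted p 0.0110), stood at 0.42 without passing (edgeR adjusted p 0.151) when scaled to the total without Rn45s, and fell at −1.27 when scaled to the whole total, Rn45s included. Values that did not pass were −0.91 for Col1a2, −0.82 for Sparc, −0.62 for Col1a1 and −0.29 for Pdgfra. The median of the 8 was −0.87, against −0.13 for all genes, and scaling to the total moved the median of all genes to −2.26 (−0.60 without Rn45s).

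Col3a1 in the siPhf2-labelled libraries stood at 0.207 of siCtl under KLA (0.0754 to 0.453) and 0.150 under vehicle (0.0642 to 0.297). Dcn stood at 0.519 under KLA (0.206 to 1.09) and 0.142 under vehicle (0.0384 to 0.368), and without the siPhf2 vehicle library its averaged log2 fold change was −1.08 and did not pass. Ctgf, on 1 read in each siPhf2 library, stood at 0.206 under KLA (0.00514 to 1.18) and 0.0768 under vehicle (0.00193 to 0.436). Fn1 stood at 1.64 of siCtl under KLA (1.43 to 1.87) and 2.06 under vehicle (1.87 to 2.28). Col1a2 and Pdgfra differed by agent, at 0.296 (0.147 to 0.533) and 0.332 (0.0895 to 0.863) of siCtl under KLA, against 0.720 (0.515 to 0.981) and 1.20 (0.722 to 1.89) under vehicle, and that difference was not tested. Past the size bound on the lower side were Col1a2, Col3a1 and Pdgfra under KLA, where 7.25% of all genes were, and Col3a1, Ctgf and Dcn under vehicle, where 8.87% were. Past it on the higher side was Fn1 under vehicle, where 10.8% were.

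The calls held unevenly across methods. DESeq2 called Col3a1, Dcn and Fn1, limma-voom called the same 4 genes as edgeR, and limma on log2 values called Col3a1, Ctgf and Fn1. Without the siCtl vehicle library Col3a1 alone passed, without the siCtl KLA library Col3a1 and Dcn, and without either siSmyd5 library Col3a1, Ctgf and Dcn. Without the siPhf2 vehicle library Col1a1 and Col1a2 fell beside Col3a1, Fn1 rose, and Ctgf and Dcn did not pass. With reads summed over transcripts Fn1 did not pass. With scaling to the total without Rn45s 6 of the 8 fell, all but Fn1 and Pdgfra. In that scaling 1371 of the 7995 genes tested fell, against 361 with TMM scaling. After the length correction Fn1 stood at log2 ratios of 0.47 under KLA and 0.27 under vehicle, against 0.71 and 1.04 uncorrected. With the siCtl and siPhf2 names exchanged each of these signs turns.

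Ratios between members inside 1 library do not depend on the scaling. Reads of Fn1 per read of Col1a1 were 12.3 (7.79 to 20.5) and 10.4 (7.70 to 14.4) in the siPhf2 KLA and vehicle libraries, 2.92 (2.55 to 3.35) and 2.67 (2.32 to 3.08) in the siSmyd5 libraries, and 3.93 (3.6 to 4.30) and 3.82 (3.49 to 4.18) in the siCtl libraries. The intervals of the 3 arms did not overlap, with siPhf2 highest and siSmyd5 lowest. Reads of Col3a1 per read of Col1a1 were 0.30 (0.0986 to 0.775) and 0.174 (0.0709 to 0.372) under siPhf2, 0.707 and 0.837 under siSmyd5, and 0.761 and 0.877 under siCtl. In the siPhf2 vehicle library the interval lay below those of the siSmyd5 and siCtl libraries. That of the siPhf2 KLA library overlapped those of both siSmyd5 libraries and of siCtl KLA (0.674 to 0.860), and lay just below that of siCtl vehicle (0.779 to 0.988).

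**Figure D4:**
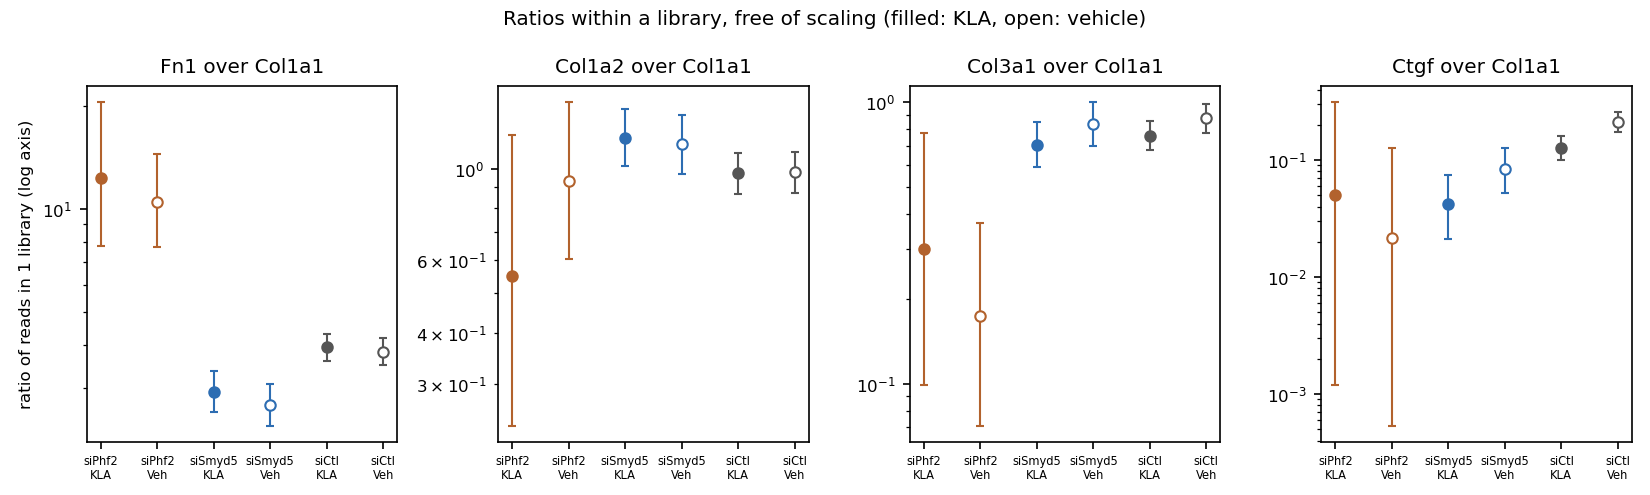
Ratio of reads of Fn1, Col1a2, Col3a1 and Ctgf to reads of Col1a1 in the same library, on log axes, with exact 95% intervals (filled points KLA, open points vehicle). Fn1 over Col1a1 lies at 10.4 to 12.3 under siPhf2 and at 2.67 to 3.93 in the other libraries, while Col1a2 over Col1a1 has overlapping intervals across arms.

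Reads of Col1a2 per read of Col1a1 were 0.550 (0.238 to 1.20) and 0.935 (0.602 to 1.45) under siPhf2, 1.19 (1.01 to 1.40) and 1.14 (0.971 to 1.35) under siSmyd5, and 0.974 (0.869 to 1.09) and 0.980 (0.874 to 1.10) under siCtl. The intervals of the type I ratio overlapped across arms. Reads of Sparc per read of Col1a1 were 0.45 and 0.326 under siPhf2, 0.404 and 0.50 under siSmyd5, and 0.402 and 0.444 under siCtl, again within overlapping intervals. Reads of Dcn per read of Col1a1 were 0.35 (0.125 to 0.862) and 0.0870 (0.0227 to 0.238) under siPhf2, 0.568 (0.466 to 0.691) and 0.518 (0.420 to 0.636) under siSmyd5, and 0.353 (0.301 to 0.413) and 0.462 (0.399 to 0.533) under siCtl, and the siPhf2 vehicle interval lay below those of the siSmyd5 and siCtl libraries. Reads of Ctgf per read of Col1a1 were 0.0418 (0.0214 to 0.0742) and 0.0833 (0.0520 to 0.128) under siSmyd5, against 0.127 (0.0995 to 0.161) and 0.214 (0.175 to 0.259) under siCtl. On 1 read each, the siPhf2 libraries gave 0.05 (0.00121 to 0.313) under KLA, whose interval overlaps all the others, and 0.0217 (0.000539 to 0.127) under vehicle. Fn1 made up 80.9% and 77.7% of the members' reads in the siPhf2 KLA and vehicle libraries, 41.6% and 38.4% in the siSmyd5 libraries, and 50.0% and 47.2% in the siCtl libraries.

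In the related lists under the siPhf2 label, read beside the 4.52% of all genes that fell and 8.12% that rose, 4 of 18 collagen-processing genes fell: the prolyl isomerase Ppib (log2 fold change −2.02), the chaperone Serpinh1 (−1.48), the lysyl hydroxylase Plod2 (−2.74) and the procollagen peptidase Adamts2, which had 0 reads in both siPhf2 libraries and 16 to 43 elsewhere. Of 9 proteoglycan and matricellular genes 3 fell, the phosphoprotein Spp1 (−1.89), the Ctgf relative Cyr61 (−2.92) and Thbs2, with 0 reads in both siPhf2 libraries and 16 to 72 elsewhere, while Vcan rose (1.51). Of the 7 other collagens Col6a2 fell (−3.65), with 1 read in each siPhf2 library against 126 and 178 in siCtl, and of 10 basement membrane genes the laminin chain Lamb1 fell (−2.0). Other falls also rest on few reads in the siPhf2 KLA and vehicle libraries: 1 and 1 for Plod2, 2 and 0 for Cyr61 and 2 and 2 for Lamb1. Serpinh1 had 3 and 8 there and Ppib 4 and 8. Of 9 fibronectin and collagen receptors Sdc4 (1.37), Itga4 (1.47) and Itgav (0.81) rose with TMM scaling, and 1 of the 9 rose when scaled to the total without Rn45s. DESeq2, limma-voom and limma on log2 values called 1, 4 and 5 falls among the collagen-processing genes, 1, 3 and 2 among the proteoglycan and matricellular genes, 0, 1 and 2 among basement membrane genes and 0, 2 and 0 rises among the receptors. Scaled to the total without Rn45s, 1371 of the 7995 genes tested fell and 339 rose. There 8 of the 18 collagen-processing genes and 6 of the 9 proteoglycan and matricellular genes fell, and Vcan did not pass. DESeq2 and limma on log2 values called no rise in that list, and limma-voom 1. Of 14 TGF-beta pathway genes 0 passed in edgeR, DESeq2, limma-voom or limma, with 4 at an unadjusted p under 0.05 in edgeR.

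Some marker lists moved with the label, and their part in the members' values was not tested. The 7 members other than Fn1 held 7.45% and 10.7% of the summed macrophage markers in the siPhf2 KLA and vehicle libraries, against 24.2% and 26.9% in the siCtl libraries, while Fn1 alone held 31.6% and 37.4%, against 24.2% and 24.1%. Smooth muscle and pericyte markers summed to 2 and 5 reads under siPhf2, or 14.4 and 20.3 TMM-scaled RPM, against 66.1 and 67.7 under siCtl, and Acta2 fell (−1.94) in edgeR but not in DESeq2 or limma-voom. Other fibroblast markers summed to 123 and 97.5 RPM, on 17 and 24 reads, against 177 and 162 RPM under siCtl. Of the 4 measured 0 passed in edgeR, DESeq2, limma-voom or limma. Mesothelial markers summed to 5 and 5 reads, or 36.1 and 20.3 RPM, against 19.5 and 36.9 RPM under siCtl, and so showed no common direction. Endothelial markers were higher, at 231 and 321 RPM against 86.1 and 89.4, with 29 of 32 and 70 of 79 reads from Vwf, which rose (2.39), and with Cdh5 at 0 in both siPhf2 libraries. Of 9 macrophage markers the kinase receptors Csf1r (1.37) and Mertk (1.60) rose and Fcgr1 (−1.18) fell, the fall not being called by DESeq2 or limma-voom. Markers of B cells, T cells, neutrophils, eosinophils and mast cells gave no gene with a mean of 10 reads.

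The genes whose scaled levels ran most like each member over the 6 libraries were found by Pearson r, as a description of 6 points that share arms and depth. For Fn1 they were Sh2b3, Siglec1 and Wnk1 (r 0.996 each), and for Pdgfra Tsc22d2 (0.992), Ptgis (0.983) and Usp32 (0.982). For Col1a1 they were Zfp143 (0.999), Gfm1 (0.986) and Parp6 (0.985), for Col1a2 Crk (0.998), Men1 (0.997) and Serpinb6b (0.997), and for Col3a1 Dock11 (0.999), Col6a2 (0.994) and 1190002N15Rik (0.993). For Dcn they were Il18bp (0.998), Clec4a2 (0.997) and C1galt1 (0.996), for Sparc Sdf2l1 (0.990), Mex3d (0.989) and Ston1 (0.987), and for Ctgf Zfp146 (0.964), Lman1 (0.963) and Ston1 (0.963). Siglec1, a macrophage surface lectin, had 46 and 76 reads under siPhf2, 81 and 65 under siSmyd5, and 300 and 292 under siCtl. Col6a2 was the only one of these genes that also stands in a matrix list.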

How the data were processed

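Poly(A) RNA-seq of 6 libraries was used, 1 for each of 3 siRNAs and 2 agents. The authors deposited 1 table of signal for 29619 RefSeq transcripts on mm9, scaled to 10000000 tags per library per the file headers. HOMER and mm9 stand in the submitters' processing notes; which aligner was used, and how, is not stated there. Dividing by what 1 read is worth gave whole reads within 0.02 for every value, and 4 columns needed the header total printed for another column. Those reads, from the transcript of highest mean signal per symbol, were tested because the unit turned out to be scaled reads. edgeR 4.0.16 (quasi-likelihood, TMM, R 4.3.3) was fitted to siRNA and agent without interaction, with 2 residual degrees of freedom and Benjamini-Hochberg adjustment over the 7995 genes that averaged 10 or more reads. An adjusted p under 0.05 was called. Single-library log2 ratios had 2 reads added. Alternatives used DESeq2 1.42.0, limma 3.58.1 (log2 of RPM with 15.18 added), other scalings, filters and left-out libraries. The fit was tested on simulated data. The genes named were the 8 members, the 3 most alike genes for each, and at most 4 passing genes of lowest adjusted p per list and effect. The members and lists were chosen with earlier results of these data known. A result of the TGF-beta pathway list under KLA is not reported here.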

Additional observations from a re-analysis of the deposited data

How the results depend on the processing

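No paired analysis was possible because each group has 1 library and the labels give no replicate numbers. The causes of the shifts below were not tested. Depth limits the siPhf2 libraries most: in the KLA library 7 of the 8 genes have at most 20 reads.

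The count of genes called for KLA was 1261 in edgeR with TMM, 609 with DESeq2, 404 with limma on log2 values, 685 with a mean of at least 50 reads (fewer genes tested), 2005 without both siPhf2 libraries (a setting chosen after seeing the data) and 407 to 2027 with 1 library left out. For siSmyd5 it was 511, and 222 scaled to the library total, 5 with DESeq2, 17 with limma-voom, 0 with limma on log2 values (490 at an unadjusted p under 0.05), 101 with a mean of at least 50 reads, 1 with summed transcripts, 2030 with siCtl and siPhf2 names exchanged, 2084 without both siPhf2 libraries and 1 to 2162 with 1 library left out. For siPhf2 it was 1010, and 7385 scaled to the total, 1710 to the total without Rn45s, 488 with DESeq2, 642 with limma on log2 values, 583 with summed transcripts and 215 to 1355 with 1 library left out. Rises and falls were 893 and 368 for KLA (636 and 510 scaled to the total, 710 and 625 without Rn45s), 219 and 292 for siSmyd5 (59 and 163, 142 and 357), and 649 and 361 for siPhf2 (38 and 7347, 339 and 1371).

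Log2 values of KLA that turned sign, none of them called, were as follows. Scaled to the total, Col1a1 stood at −0.13, Dcn at −0.054, Pdgfra at −0.13 and Fn1 at −0.095. Scaled to the total without Rn45s, Col1a1 stood at −0.084, Dcn at −0.064, Pdgfra at −0.092 and Fn1 at −0.022. With DESeq2, Col1a1 stood at −0.018 and Pdgfra at −0.21. With limma on log2 values, Col1a1 stood at −0.017, Col3a1 at 0.056 and Pdgfra at −0.31. Col1a2 stood at 0.055 with limma-voom, 0.021 with no filter and 0.16 without both siPhf2 libraries, where Dcn stood at −0.025. Pdgfra stood at −0.0014 with a mean of at least 50 reads and −0.11 with summed transcripts. With 1 library left out the ranges were −0.095 to 0.16 (Col1a1), −0.36 to 0.18 (Col1a2), −0.063 to 0.057 (Col3a1), −0.0052 to 0.56 (Dcn), −0.082 to 0.031 (Sparc), −0.44 to 0.22 (Pdgfra) and −0.0017 to 0.24 (Fn1).

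With siCtl and siPhf2 names exchanged, the siSmyd5 values turned to 0.18 (Col1a1), 0.73 (Col1a2), 2.02 (Col3a1), 1.85 (Dcn), 0.48 (Sparc) and 1.26 (Ctgf). Dcn stood at 0.0061 with limma-voom. With 1 library left out siSmyd5 ranged from −0.47 to 0.057 for Col1a2 and from −0.42 to 0.38 for Dcn. The exchange turns each siPhf2 value by construction, to 0.62 (Col1a1), 0.91 (Col1a2), 2.55 (Col3a1), 1.86 (Dcn), 0.82 (Sparc), 0.29 (Pdgfra), −0.89 (Fn1) and 3.14 (Ctgf). Pdgfra ranged from −1.57 to 0.20 for siPhf2 with 1 library left out, and Fn1 stood at −1.27 scaled to the total. Among single libraries the exchange gave 0.14 for Col1a2 after KLA in the siPhf2 arm. For siSmyd5 it gave 0.37 (Pdgfra) and 0.20 (Ctgf) under KLA and 1.59 (Ctgf) under vehicle. For siPhf2 it gave 1.74 (Col1a2), 2.24 (Col3a1) and 1.54 (Pdgfra) under KLA and 2.69 (Col3a1), 2.71 (Dcn), −1.04 (Fn1) and 3.29 (Ctgf) under vehicle. Fn1 stood at −1.03 under vehicle scaled to the total.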
